A study of Homo sapiens with 6 samples.

Results

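The genes of break resection and junction resolution were taken as the loci whose gene symbol was RAD50, NBN, RBBP8, EXO1, DNA2, BLM, WRN, MUS81, SLX4 or GEN1, which gave 10 loci of the 47577 in the expression table. The choice rested on the known roles of the proteins, although earlier results of these data were known when it was made. All 10 genes passed the minimum for expression (3 or more libraries at 10 or above after normalization), which 17568 loci did in all.

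OVCAR3 is an established human cell line of high-grade serous ovarian adenocarcinoma. PolyA RNA was sequenced from 3 samples given DMSO, the solvent, and from 3 samples given 200 nM THZ531, a covalent inhibitor of the transcription kinases CDK12 and CDK13. Both groups were harvested after 6 h and shared the line and the growth medium, and no other allele or agent is named in the labels apart from the antibiotics of the medium. The titles, descriptions and treatment field name THZ531, whereas the treatment protocol names THZ1, a related inhibitor, at this dose, and the samples are called THZ531 here after their titles. Nothing in the labels states that the samples were separate cultures, so p-values measure only the spread between these samples, which may be technical. A single line limits the data as a model of the tumour type.

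A double-strand break that is to be repaired by homologous recombination is first resected, that is, the strand ending 5′ is cut back to leave a single-stranded tail. The complex of MRE11, RAD50 and NBN begins the cut together with the cofactor CtIP, which RBBP8 encodes. EXO1, or DNA2 together with the RecQ helicases BLM or WRN, then extends it over longer distances. After strand exchange the joined molecules form Holliday junctions. BLM with TOP3A, RMI1 and RMI2 dissolves them without a cut, while MUS81 with EME1, the SLX4 scaffold with its bound nucleases, and GEN1 cut them.

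Values are DESeq2-normalized read counts, the reads on a gene divided by a size factor per library, called normalized reads here. They are not corrected for gene length, so levels of different genes were compared only per kilobase. Differences were tested with limma on the log2(value + 1) scale, on which the change of weakly expressed genes is understated, and a gene was called where the fold change reached 1.5 and the p before adjustment did not exceed 0.05. Adjusted p-values are Benjamini-Hochberg values of limma over all 17568 loci tested. Between 53054048 and 70986130 reads were counted on genes per library. Pearson's r of the log2 values was at least 0.9862 between libraries of a group and at most 0.9399 between groups. CDK12 mRNA was at 6762 ± 105 (SD, n = 3) normalized reads in DMSO and 8835 ± 357 in THZ531 (log2 fold change 0.39), and CDK13 at 3918 ± 149 and 3863 ± 44.8 (log2 fold change -0.02). All 8 epithelial markers were expressed, with a summed level of 436000 to 446700 normalized reads in DMSO and 555200 to 567600 in THZ531. Keratins weighed most in this sum, with KRT8 going from 153800 to 230500. Of the 8, 3 were lower in THZ531, and only PAX8 was called. PAX8 fell from 11270 to 1241 and MUC16 from 4598 to 3334, whereas WT1, at 650.3 and 579.2, overlapped between the groups (limma adjusted p = 0.19). The 6 fibroblast markers summed to 1659 to 1914 in DMSO and 3176 to 3517 in THZ531, where COL1A1 and COL3A1 rose, whereas 3 of the 6 were below the minimum for expression, DCN and LUM among them. Summed over all loci, normalized reads also rose, from 55389676 to 56639224 in DMSO to 65875609 to 66820371 in THZ531. The part of the shift in the markers in the results was not tested. In bulk RNA, fewer cells of a type and less RNA per cell cannot be told apart.

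Promoter windows of 250 bases before the transcription start were taken by symbol from the RefSeq table of GRCh38.p14 for 7 of the 10 genes. Windows of NBN, DNA2 and WRN are not reported here. The windows of SLX4 and MUS81 are shown because these genes are among the 3 with the largest falls, and that of RBBP8 because it is the gene called higher. Capitals mark the letters of the motifs searched on both strands. The SLX4 window lies at chr16:3611607-3611856 on the minus strand, the MUS81 window at chr11:65860183-65860432 on the plus strand, and the RBBP8 window at chr18:22933078-22933327 on the plus strand.
SLX4: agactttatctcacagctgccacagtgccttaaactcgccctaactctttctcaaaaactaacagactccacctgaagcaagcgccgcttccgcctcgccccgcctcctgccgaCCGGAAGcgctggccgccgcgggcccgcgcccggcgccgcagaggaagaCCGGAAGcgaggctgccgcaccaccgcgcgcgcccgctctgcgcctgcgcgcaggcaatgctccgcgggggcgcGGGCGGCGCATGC
MUS81: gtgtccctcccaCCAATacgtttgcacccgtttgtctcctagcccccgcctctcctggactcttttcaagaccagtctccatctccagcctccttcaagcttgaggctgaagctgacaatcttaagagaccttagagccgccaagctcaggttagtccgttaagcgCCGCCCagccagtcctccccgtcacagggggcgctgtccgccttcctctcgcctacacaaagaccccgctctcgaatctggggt
RBBP8: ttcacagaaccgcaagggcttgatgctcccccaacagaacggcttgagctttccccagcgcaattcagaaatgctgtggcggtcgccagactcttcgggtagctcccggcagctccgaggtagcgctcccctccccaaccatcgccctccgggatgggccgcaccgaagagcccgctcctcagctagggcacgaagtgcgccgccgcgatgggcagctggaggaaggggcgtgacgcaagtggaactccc

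The SLX4 window held 2 ETS motifs (CCGGAAG, in 8.52% of the 35116 windows of the table), 1 SP1 motif (GGGCGG, 42.6%) and 1 NRF1 motif (GCATGCGC, 2.63%), and the last of these overlapped the SP1 motif at the end of the window. The MUS81 window held 1 SP1 and 1 NFY motif (CCAAT, 32.0%). In the RBBP8 window none of the letters searched was found. Of the 4 other windows, RAD50 held 2 ETS motifs, BLM held 1 ETS, 2 SP1 and 3 NFY motifs, EXO1 held 1 SP1 and 1 CRE motif (TGACGTCA, 1.65%), and GEN1 held 2 SP1 motifs. The E2F motifs TTTCGCGC (0.439%) and TTTGGCGC (0.55%) occurred in none of the 7 windows. A match describes letters only and does not show that a factor binds.

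Of the 10 genes, 5 were called lower with THZ531 (SLX4, DNA2, MUS81, BLM and GEN1), and RAD50, NBN, EXO1 and WRN were not called. RBBP8 was called higher as deposited but not under 2 of 3 other scalings. The background over all loci tested was 23.9% called lower and 15.7% called higher. The median log2 fold change of the 10 genes was -0.59, beside -0.01 over all loci tested. The groups did not overlap for any of the 10 genes, 8 lower and 2 higher, but this was common, since it held for 35.7% of all loci tested in the lower direction and 36% in the higher, and with RPL34 as the reference NBN and RBBP8 overlapped. All 3 junction resolution genes were called lower. GEN1 was lower also when libraries were scaled to the upper quartile, at -0.54, but was not called there.

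**Figure D1:**
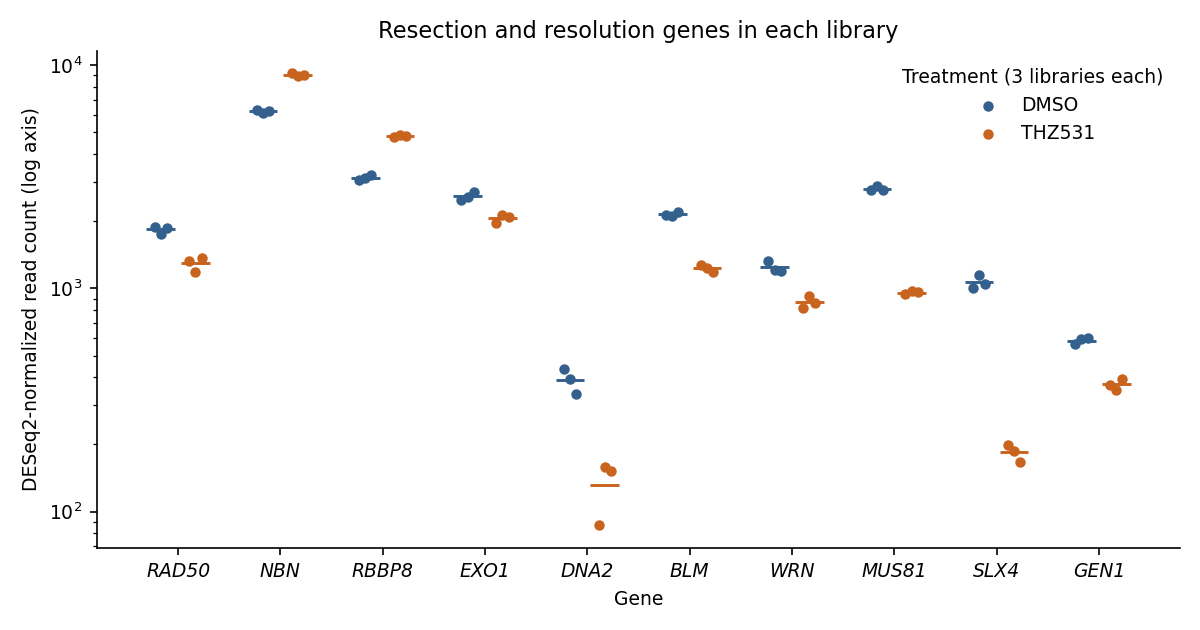
Normalized read counts (log axis) of the 10 genes in each of the 3 DMSO (blue) and 3 THZ531 (orange) libraries, with a bar at the mean. SLX4 shows the widest gap, from 1008 to 1143 in DMSO down to 167.2 to 199 in THZ531, while NBN and RBBP8 are the genes that sit higher in THZ531.

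Of the 3 genes of the first cut, only RBBP8 was called as deposited, whereas with the same total and with RPL34 only RAD50 was called, as lower. RAD50 (chr5:132556340-132646349, hg38), the coiled-coil ATPase that tethers the ends, was at 1888, 1758 and 1864 normalized reads in DMSO replicates 1, 2 and 3 and at 1324, 1179 and 1371 in THZ531 replicates 1, 2 and 3. Every THZ531 library was below every DMSO library, but the difference of -0.51 on the log2 scale (SE 0.065, 95% interval -0.65 to -0.37, adjusted p = 3.5e-06) was 1.42-fold and did not reach the threshold of 1.5. The whole RAD50 locus lies inside a joint locus listed for IL5 and SHROOM1, which was at 1549 ± 93.5 normalized reads in DMSO and 1166 ± 85.4 in THZ531 (SD, n = 3, log2 fold change -0.41). The library kit keeps the strand, but whether the counting used it is not given in the sources used here. Whether overlapping loci shared reads was not tested.

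NBN (chr8:89933331-89984673), the subunit that recruits the checkpoint kinase ATM, was at 6317, 6079 and 6204 normalized reads in DMSO and at 9173, 8896 and 8993 in THZ531. The groups were well separated, with means of 6200 ± 119 and 9021 ± 140 (SD, n = 3). With a log2 fold change of 0.54 (SE 0.037, 95% interval 0.46 to 0.62, adjusted p = 2.4e-09), or 1.45-fold, NBN also stayed just under the fold threshold. RBBP8 (chr18:22933328-23026486), which encodes the CtIP cofactor of MRE11, was at 3042, 3123 and 3203 in DMSO and at 4781, 4882 and 4821 in THZ531. It rose by 0.63 on the log2 scale (SE 0.042, 95% interval 0.54 to 0.72, adjusted p = 2e-09), which is 1.55-fold. The call of RBBP8 and the lack of one for NBN therefore lay on either side of a threshold that falls within both intervals. MRE11, the nuclease of the complex, was looked up after the values were seen and was at 366 ± 23.2 and 386.2 ± 18.1 (log2 fold change 0.08, adjusted p = 0.52).

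Among the genes of long-range resection the nuclease and helicase DNA2 fell most. DNA2 (chr10:68414064-68472121) was at 435.9, 391.6 and 335.9 normalized reads in DMSO and at 86.9, 158 and 151.3 in THZ531. THZ531 replicate 1 was well below the other treated libraries, and the counts behind the values ran from 69 to 549 reads, the lowest of the 10 genes. DNA2 fell by 1.59 on the log2 scale (SE 0.197, 95% interval -2.01 to -1.17, adjusted p = 2.4e-06), or 3.01-fold. Leaving out each library in turn gave -1.74 to -1.31. The other nuclease, EXO1 (chr1:241848203-241889939), was at 2486, 2568 and 2690 in DMSO and at 1965, 2136 and 2087 in THZ531. Its groups did not overlap, but the difference of -0.32 (SE 0.053, 95% interval -0.44 to -0.21, adjusted p = 5e-05) was 1.25-fold and was not called.

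The helicases that work with DNA2, BLM and WRN, were both lower with THZ531, but only BLM was called as deposited. BLM (chr15:90717346-90816166), the Bloom syndrome helicase, was at 2136, 2097 and 2197 normalized reads in DMSO and at 1270, 1233 and 1183 in THZ531. It fell by 0.80 on the log2 scale (SE 0.056, 95% interval -0.92 to -0.68, adjusted p = 2.8e-09), or 1.74-fold. WRN (chr8:31033810-31176138), the Werner syndrome helicase and exonuclease, was at 1323, 1210 and 1194 in DMSO and at 819.9, 923 and 857.8 in THZ531. The difference of -0.52 (SE 0.071, 95% interval -0.67 to -0.37, adjusted p = 7.6e-06) was 1.43-fold and was not called. The fold threshold falls within this interval, and WRN was called lower with the same total and with RPL34.

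The junction resolution genes fell by unequal amounts. SLX4 (chr16:3581181-3611606), the scaffold that holds structure-specific nucleases, was at 1008, 1143 and 1042 normalized reads in DMSO and at 199, 187.6 and 167.2 in THZ531. The treated libraries kept 17.3% of the DMSO mean, and SLX4 fell by 2.52 on the log2 scale (SE 0.101, 95% interval -2.74 to -2.31, adjusted p = 6.1e-12), or 5.75-fold. By fold change SLX4 was number 364 from the bottom of the 17568 loci tested.

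MUS81 (chr11:65860405-65867653), the catalytic subunit of the MUS81 and EME1 nuclease, was at 2745, 2885 and 2760 in DMSO and at 938.3, 975.3 and 957.9 in THZ531. The libraries of each group lay close together, and MUS81 fell by 1.55 on the log2 scale (SE 0.054, 95% interval -1.66 to -1.43, adjusted p = 1.4e-12), or 2.92-fold. MUS81 shares 1213 bases with EFEMP2, which was at 56.82 ± 8.86 and 75.5 ± 26.2 (SD, n = 3). GEN1 (chr2:17753869-17788946), the Holliday junction resolvase, was at 563.7, 590.1 and 596 in DMSO and at 370.3, 350.1 and 392.5 in THZ531. It fell by 0.65 on the log2 scale (SE 0.092, 95% interval -0.85 to -0.46, adjusted p = 1.1e-05), or 1.57-fold, close to the threshold. The whole GEN1 locus lies inside SMC6, which fell from 2865 ± 106 to 1755 ± 190 (SD, n = 3, log2 fold change -0.71). Whether GEN1 and SMC6 shared reads was not tested.

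For 6 pairs of partners or alternatives, ratios within a library were compared, with 1 added to each value before dividing. Apart from this added 1, such ratios do not depend on how libraries are scaled. Fold differences of ratios are between group means on the log2 scale. An exact permutation test of 3 against 3 libraries (two-sided) cannot go below p = 0.1, and each of the 6 ratios gave p = 0.1, which stayed 0.1 after adjustment over the 6. RAD50 per NBN went from 0.296 ± 0.006 in DMSO to 0.143 ± 0.01 in THZ531 (SD, n = 3, 2.07-fold lower). RBBP8 per NBN was 0.504 ± 0.019 and 0.535 ± 0.014, a 1.06-fold difference and the smallest of the 6. EXO1 per DNA2 was 5.692, 6.543 and 7.986 in the DMSO libraries and 22.363, 13.439 and 13.706 in the THZ531 libraries, 2.4-fold higher. The highest of these values is that of THZ531 replicate 1, the library with the lowest DNA2.

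BLM per WRN was 1.73 ± 0.11 in DMSO and 1.42 ± 0.11 in THZ531, 1.22-fold lower. SLX4 per MUS81 was 0.381 ± 0.015 and 0.194 ± 0.019, 1.97-fold lower, whereas GEN1 per MUS81 was 0.209 ± 0.0064 and 0.388 ± 0.026, 1.86-fold higher. Relative to MUS81, every THZ531 library thus held less SLX4 and more GEN1 than any DMSO library. No ratio overlapped between the groups. A lack of overlap was common among single loci (35.7% of all tested in the lower direction and 36% in the higher), and its share over all gene pairs was not computed.

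**Figure D2:**
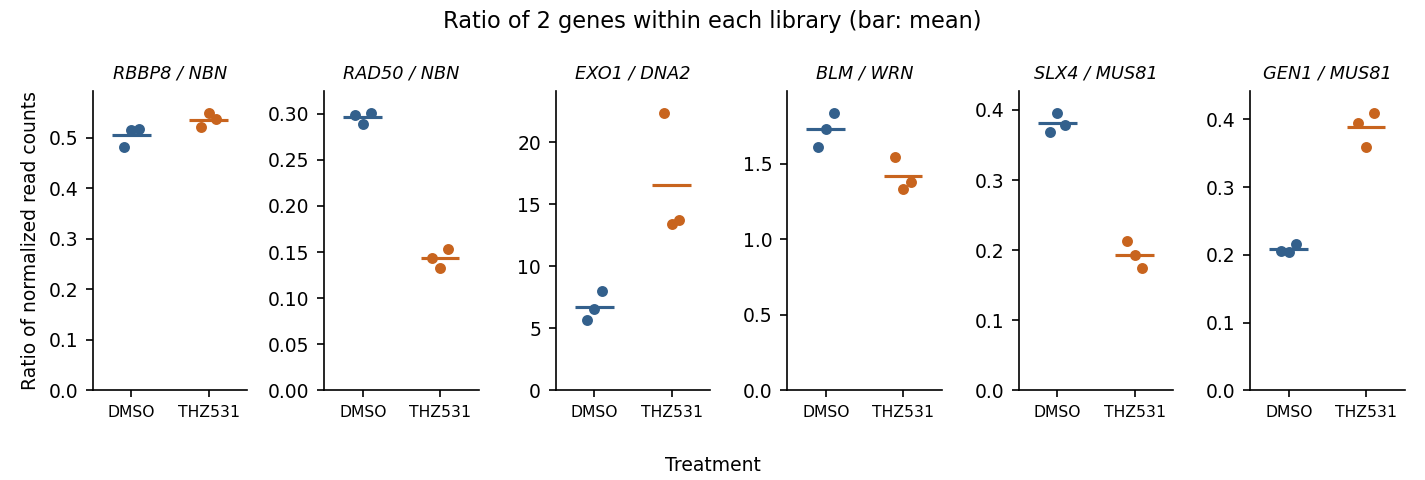
Ratio of normalized reads of each pair within each library, with 1 added to each value (linear axes from 0). Blue points are DMSO, orange points are THZ531, and a bar marks the mean of 3 libraries. RAD50 per NBN and SLX4 per MUS81 drop from 0.296 to 0.143 and from 0.381 to 0.194, while RBBP8 per NBN moves only from 0.504 to 0.535.

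Per kilobase of merged exons, the order of the genes also changed. In DMSO, EXO1 (624 ± 25 normalized reads per kilobase, SD, n = 3) and RBBP8 (615 ± 16) led and overlapped each other, and no other neighbours in the order overlapped. MUS81 (513 ± 14), NBN (319 ± 6.1), BLM (272 ± 6.4), RAD50 (174 ± 6.5), WRN (151 ± 8.6), SLX4 (105 ± 7), DNA2 (78.7 ± 10) and GEN1 (49.3 ± 1.5) followed. In THZ531 the level per kilobase of RBBP8 was 951 ± 10, above EXO1 at 499 ± 21 and NBN at 465 ± 7.2. MUS81 (176 ± 3.4) and BLM (156 ± 5.5) came next, and RAD50 (122 ± 9.5) and WRN (105 ± 6.3) overlapped. SLX4 moved from the eighth place to the last, at 18.3 ± 1.6, where DNA2 (26.8 ± 8) overlapped both SLX4 and GEN1 (31.4 ± 1.8). The order depends on the length used, because with the length of the MANE transcript NBN was first in both groups, at 1340 in DMSO and 1950 in THZ531.

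The number of the 10 genes called depended on the scaling of the libraries. The median over all loci tested was -0.25 on the log2 scale when libraries were given the same total, 0.11 with the upper quartile and -0.50 with the ribosomal protein gene RPL34 as the reference, beside -0.01 as deposited. With the same total, 7 of the 10 genes were called lower (background 32%) and none higher (background 9.38%). NBN and RBBP8 were at 0.3 and 0.39 there, below the fold threshold. With the upper quartile 4 were called lower (20.7%) and 2 higher (20.6%), the latter being NBN and RBBP8. Scaled to RPL34, 8 were called lower (42.8%) and none higher (6.14%). RBBP8 was then at 0.14 (limma, adjusted p = 0.18) and NBN at 0.05 (adjusted p = 0.61). The share of all calls that were lower was 60.4% as deposited, 77.3% with the same total, 50.2% with the upper quartile and 87.5% with RPL34. SLX4, DNA2, MUS81 and BLM were called lower under each of these 4 scalings. RAD50, EXO1, WRN and GEN1 were also lower under each of the 4, but were called only under some of them. The rise of RBBP8 was called as deposited and with the upper quartile only.

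**Figure D3:**
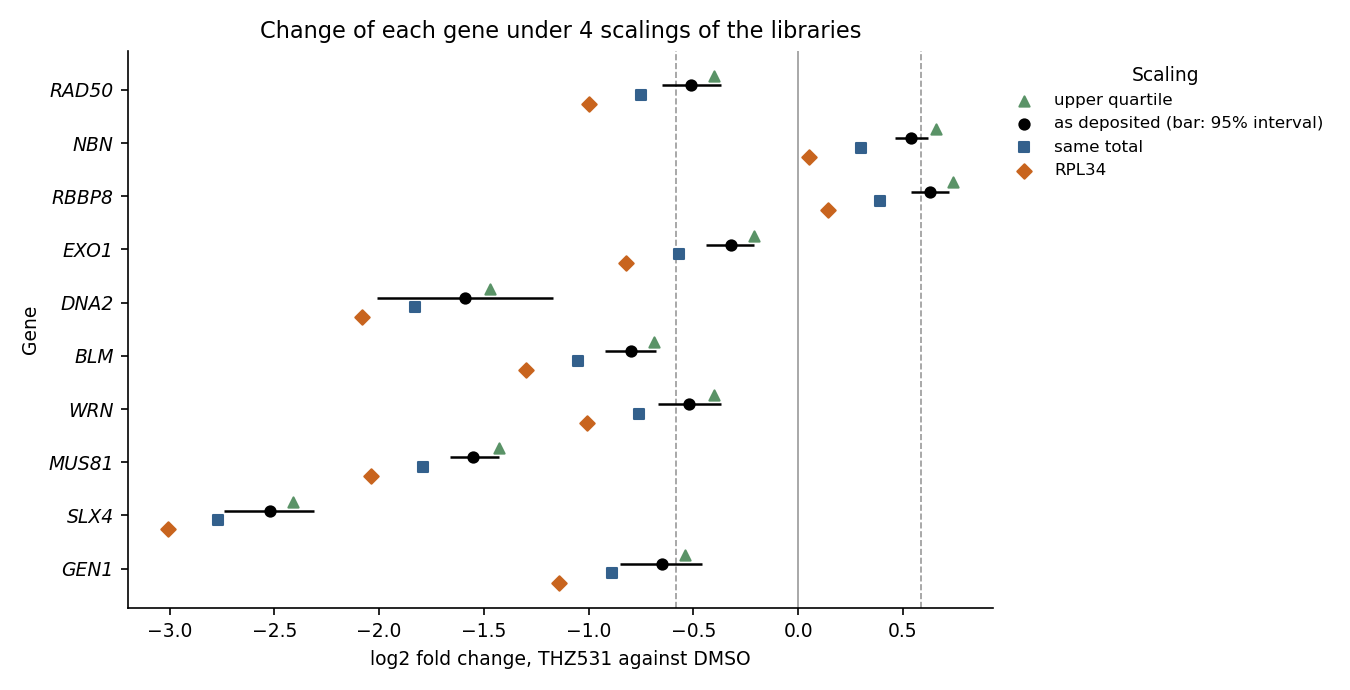
Log2 fold change, THZ531 against DMSO, of the 10 genes under 4 scalings, with the 95% interval for the values as deposited and dashed lines at the fold threshold of 1.5. NBN and RBBP8 stay right of 0 under each scaling but come down to 0.05 and 0.14 with RPL34, while SLX4 stays between -3.01 and -2.41.

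Gene structure was compared from GENCODE v44, with the MANE transcript of each gene. The 10 genes spanned from 6.0 kb (MUS81) to 142.3 kb (WRN), with a median of 54623 bases beside 27633 over the 13244 genes tested and matched. MUS81 and SLX4 had the fewest AATAAA hexamers in their introns, 0 and 4, and were among the 3 with the largest falls. The number did not order the other genes, since RBBP8, with 95, rose, BLM, with 100, fell by 0.80 on the log2 scale, DNA2, with 42, fell by 1.59, NBN, with 51, was at 0.54, and WRN, with the most, 165, was at -0.52. Across the 10 genes, Spearman's rho of the log2 fold change was 0.54 with the number of hexamers and 0.38 with the span, while across the 13244 genes it was -0.04 and -0.05. These are descriptions across genes, which share the libraries and are not independent. The share called lower was 20.2% among genes up to 10 kb and 24.9% among those over 120 kb.

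**Figure D4:**
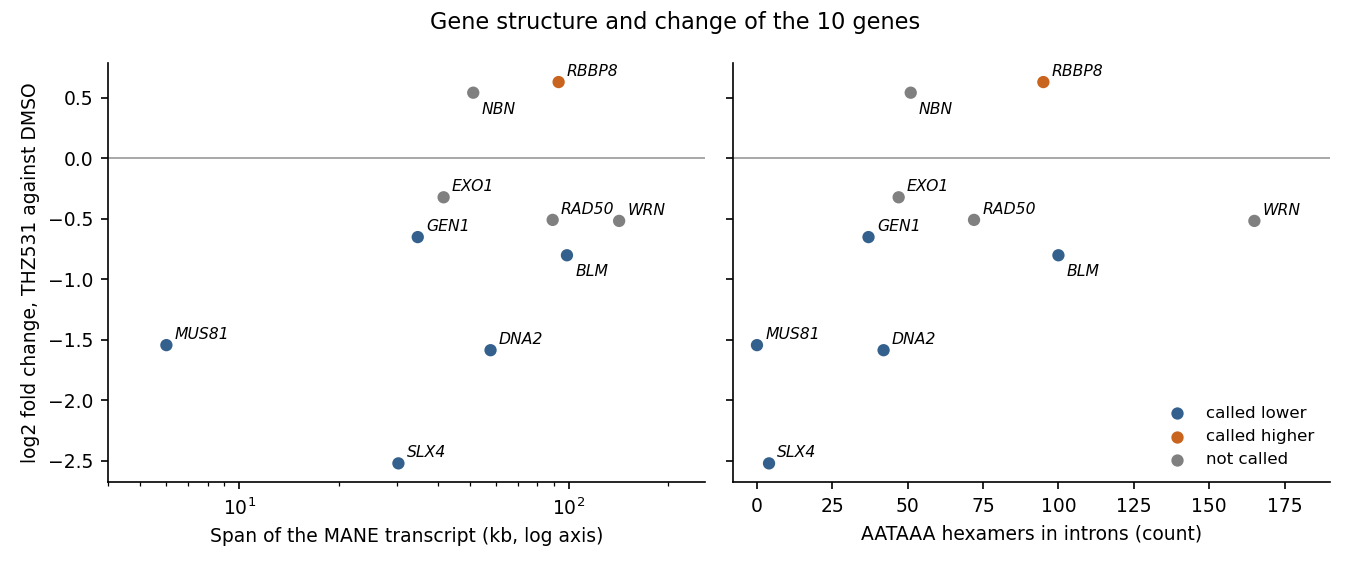
Log2 fold change of the 10 genes against the span of the MANE transcript (left, kb, log axis) and the number of AATAAA hexamers in its introns (right). MUS81 and SLX4, with 0 and 4 hexamers, lie at -1.55 and -2.52, while BLM and WRN, with 100 and 165, lie at -0.80 and -0.52.

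The other genes of the pathway were grouped in 6 lists, and 45 of their 46 genes passed the minimum, the exception being BARD1, which was listed at 0 in every library. A listed 0 may reflect the annotation or the counting, which was not tested, and does not show that BARD1 was not expressed. SLX1A and SLX1B were also planned for the lists, but no locus was found under either symbol, so the 46 do not include them. Of the 45, 21 were called lower and 5 higher, beside the same backgrounds of 23.9% and 15.7%, and their median log2 fold change was -0.38. With the upper quartile these counts were 17 and 6, with the same total 24 and 1, and with RPL34 26 and 0, so that of the rises named in the next paragraphs HELB alone was called with the same total and none with RPL34.

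The 3 partners of BLM in dissolution all fell. TOP3A, the topoisomerase, was at 2957 normalized reads in DMSO and 1772 in THZ531 (log2 fold change -0.74, adjusted p = 1.8e-08). RMI1 and RMI2, its OB-fold cofactors, went from 765.6 to 274.3 (-1.48, adjusted p = 2.6e-09) and from 339.7 to 139.6 (-1.27, adjusted p = 4.7e-07). These falls were called under each of the 4 scalings.

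Of 7 other structure-specific nucleases and partners, 4 were called lower and none higher, with a median of -0.67. With the upper quartile 2 were called lower (background 20.7%). EME1, the partner of MUS81, fell from 913.8 to 379.2 normalized reads (-1.28, adjusted p = 8.7e-08). ERCC4, the XPF nuclease that SLX4 binds, fell from 160.7 to 62.86 (-1.33, adjusted p = 3.8e-05). FAN1, a nuclease of crosslink repair, fell from 547.5 to 337.4 (-0.70, adjusted p = 2.1e-05) but was not called with the upper quartile, and neither was SLX4IP, named here after its values were seen.

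Of the 8 tested resection partners 3 were called lower and none higher, with a median of -0.23. With the upper quartile 2 were called lower (background 20.7%), and SAMHD1, named here after its values were seen, was called higher (background 20.6%). BRCA1, which with BARD1 promotes resection, fell from 713.3 ± 36.4 to 185.4 ± 10.5 normalized reads (SD, n = 3, limma log2 fold change -1.94, adjusted p = 1.5e-10). RPA2, a subunit of the protein that coats the single strand, fell from 1508 to 827.2 (-0.87, adjusted p = 1.9e-08). EXD2, an exonuclease that works with MRE11, fell from 844.8 to 547.1 (-0.62, adjusted p = 1.6e-05), which was not called with the upper quartile.

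The 8 brakes on resection moved in both directions, with 3 called higher (background 15.7%), 2 called lower (background 23.9%) and a median of 0.24. HELB, a helicase that curbs EXO1 and DNA2, rose from 522 to 928.2 normalized reads (0.83, adjusted p = 2.1e-07). RIF1, which acts behind 53BP1, rose from 3070 to 5416 (0.82, adjusted p = 7.3e-10). Members of shieldin, the complex that protects ends, differed from each other. SHLD1 rose from 67.94 to 110.3 (0.69, adjusted p = 0.0079), SHLD2 fell from 2940 to 1423 (-1.05, adjusted p = 2.1e-10), and the locus of SHLD3, which is joined with TRAPPC13 and therefore uncertain, fell from 769.2 to 290.4 (-1.40, adjusted p = 2.6e-09).

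Among 8 other RecQ and anti-recombinase helicases 2 were called lower and 2 higher, with a median of 0.08. Over all loci tested, 23.9% were called lower and 15.7% higher. RECQL5, a relative of BLM and WRN, fell from 766.2 to 226.6 normalized reads (-1.77, adjusted p = 3.8e-09), and FBH1, an anti-recombinase, fell from 3112 to 1221 (-1.35, adjusted p = 7.2e-12). FANCM, the fork translocase, rose from 255.7 to 452.1 (0.81, adjusted p = 1.6e-05), and BRIP1, the BRCA1-bound helicase, from 713 to 1111 (0.64, adjusted p = 4.5e-06).

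The strand exchange genes, whose products act between resection and resolution, were called lower for 7 of 11 and higher for none. Their median was -0.72. RAD52, an annealing protein, fell from 238.9 to 66.86 normalized reads (-1.82, adjusted p = 1.9e-07). XRCC2, which assists strand exchange, fell from 3606 to 1051 (-1.77, adjusted p = 5.6e-12).

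**Figure D5:**
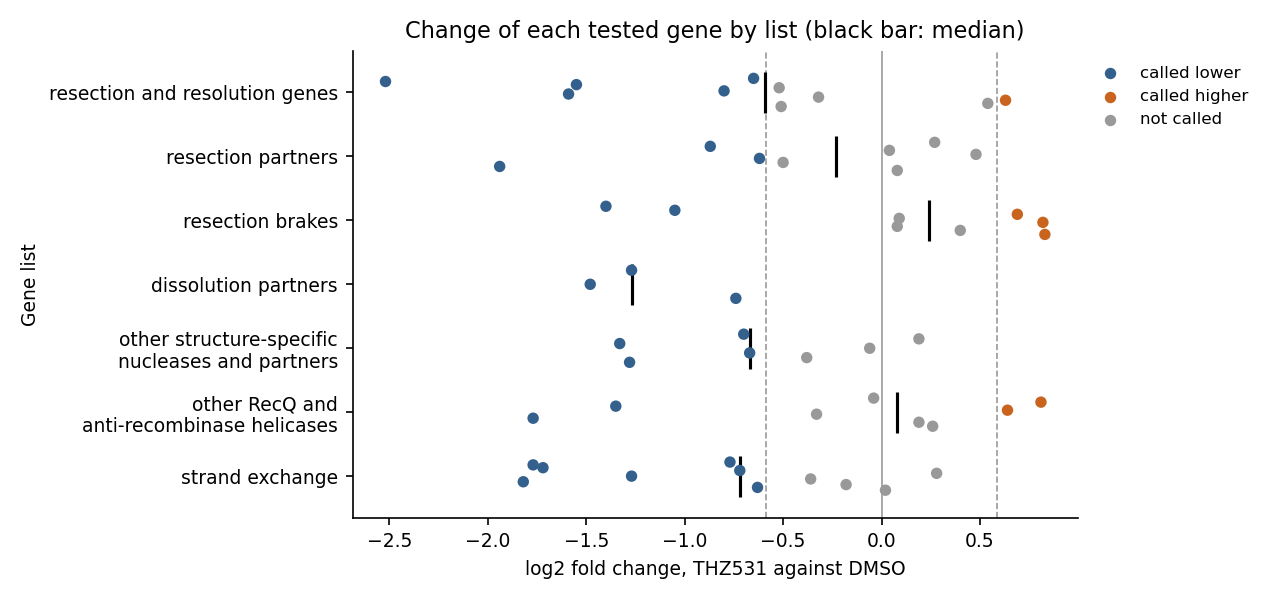
Log2 fold change, THZ531 against DMSO, of the 10 resection and resolution genes and of the 45 tested genes of the 6 other lists, coloured by call, with a black bar at each median and dashed lines at the fold threshold of 1.5. All 3 dissolution partners lie left of the threshold, with a median of -1.27, and the brakes fall on both sides, with a median of 0.24.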

How the data were processed

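RNA-seq was analysed for OVCAR3 cells given DMSO (3 libraries) or THZ531 (3 libraries). According to the submitters' processing notes the authors used STAR 2.7.5a for mapping to hg38, although the study's methods name another version of STAR. Per those methods the reads were counted on FAST DB genes. They deposited a signal per locus, namely read counts divided by a DESeq2 size factor per library, and 100% of the values came out as whole reads (tolerance 0.01). The strand setting of the counting is not given in the sources used here. Every sample column was used (0 were not mapped).

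The values were tested as log2(value + 1) with limma 3.58.1 (trend, no covariates) in R 4.3.3, keeping loci that reached 10 in 3 or more libraries. The script was tested on simulated data. The 10 genes and the lists were chosen with earlier results of these data known. Of the listed pathway genes, at most the 3 largest falls and 3 largest rises per list among those called are named, and CDK12 and CDK13 were checked. A gene of the strand exchange list that this rule would name is not reported here. The epithelial, fibroblast, leukocyte and endothelial marker lists were used for a check of the cells. The 5 leukocyte markers summed to 411.2 to 503.5 normalized reads in DMSO and 408.1 to 489.9 in THZ531, and the 3 endothelial markers to 162.4 to 199.3 and 212.6 to 299.2.

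Alternatives were pseudocounts of 0.1 and 10, no minimum and a minimum of 50, 3 other scalings, a fold change of 2, the replicate number as a block, limma without trend, the adjusted p, edgeR 4.0.16 and DESeq2 1.42.0 on the recovered reads, and leaving out each library. The length of the MANE transcript was added after the data were seen.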

Additional observations from a re-analysis of the deposited data

How the results depend on the processing

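No direction of the 10 genes changed in any of the 19 alternative settings, and SLX4, DNA2 and MUS81 were called in each of them. Scaling and the fold threshold changed the counts. The number of the 10 genes called higher was 1 as deposited, 2 with the upper quartile, and 0 with the same total, with RPL34 and at a fold change of 2. The number called lower was 5 as deposited, 8 with RPL34 and 3 at a fold change of 2, where RBBP8, BLM and GEN1 were no longer called. With the same total RAD50 and WRN were added and RBBP8 was lost. With RPL34 RAD50, EXO1 and WRN were added and RBBP8 was lost. With the upper quartile NBN was added and GEN1 was lost. Their median log2 fold change was -0.83 with the same total, -0.47 with the upper quartile and -1.08 with RPL34. Of the 45 other pathway genes, 1 was called higher with the same total, 0 with RPL34 and 0 at a fold change of 2, where 13 were called lower. Over all loci a fold change of 2 left 2689 lower and 1353 higher, against 4197 and 2751. Leaving out each library in turn kept 5 lower and 1 higher, with medians of -0.62 to -0.58. edgeR and DESeq2 also gave 5 and 1.

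The replicate number as a block (replicate block) gave 5 lower and 1 higher of the 10 genes, 21 and 5 of the other pathway genes, and 4173 and 2745 over all loci. The numbers did not pair the samples, since deviations of DMSO and THZ531 libraries with the same number correlated at 0, 0.02 and -0.04. With 3 libraries a group, 69 to 549 reads for DNA2 and an SE of 0.197, the fall of DNA2 is the least precise of the 10.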
